A study of Medicago truncatula with 6 samples.

Results

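Small RNA counts were examined for fragments of TRIM retrotransposons in roots of Medicago truncatula, a model legume. A fragment was taken as a member when its feature ID named a TRIM retrotransposon, and 9158 of the 400216 features in the deposited count tables did. Each ID gives a superfamily code, a family number, the numbered source element with its chromosome, start and end, and the chromosome and running number of the fragment itself. The 9158 fragments were assigned to 1892 source elements and 1537 families, of which 326 were shared families and 1211 were named as singletons. Roots labelled GUS RNAi (3 libraries) were compared with roots labelled SKI3 RNAi (3 libraries). Both groups carry the genotype label WT and the treatment label mock. GUS is a bacterial reporter gene that serves as a common RNAi control, and SKI3 belongs to the Superkiller complex, which feeds RNA to the exosome for decay. The promoter of the RNAi constructs, the age of the plants and whether the libraries came from separate plants are not given in the labels, so the p-values below measure the spread between these libraries, which may be technical. The files do not pair feature IDs with gene names, so neither the knock-down of SKI3 nor the identity of the tissue could be checked.

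TRIMs, terminal-repeat retrotransposons in miniature, are short relatives of LTR retrotransposons. They keep the terminal repeats and the signals needed to start reverse transcription but code for no protein, and are thought to move with enzymes supplied by other elements. In plants, small RNAs of the length counted here arise when Dicer-like enzymes cut double-stranded RNA, and they are known for silencing transcripts of retrotransposons and viruses. The codes RLC and RLG stand for the Copia and Gypsy superfamilies of LTR retrotransposons, and RLX for LTR elements of no assigned superfamily.

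Total counts were 2168297 to 3974092 per library. A header line in 1 of the tables names reads of 21 to 22 nt, so these totals are taken to be part of each library and not its full depth. A floor of 3 counts corresponded to 0.755 to 1.38 CPM, the count scaled to a library total of 1000000. A read can be counted in several copies of a repeat, and the treatment of such reads is not given in the sources used here. Fragments of 1 source element, and elements of 1 family, are therefore not independent, and 31 tested TRIM fragments had the same 6 counts as another. The IDs carry no fragment length, so levels below are per fragment or per family and not per base. In bulk roots, fewer cells of a type and less RNA per cell cannot be told apart.

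TRIM fragments held 24158, 22842 and 20345 CPM in the GUS RNAi libraries and 23502, 22833 and 22902 CPM in the SKI3 RNAi libraries. The groups overlapped, with the lowest and the highest value both in GUS RNAi. The share of all counts was 2.24% ± 0.194 (SD, n = 3) in GUS RNAi and 2.31% ± 0.0368 (SD, n = 3) in SKI3 RNAi. The difference of 0.063 percentage points was smaller than the SD of the GUS RNAi libraries.

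The counts were concentrated in few fragments. Of the 9158 fragments, 2115 (23.1%) had no count in any library, 2584 had a count in every library, and the median fragment had 4 counts over all 6 libraries together. At the other end, 129 fragments held 50% of the 396365 TRIM counts, and the most counted fragment held 4967. Families were as uneven: 9 of 1537 families held 50% of the counts, 190 held 90%, and 271 had no count. Fragments of shared families averaged 80.7 counts and those of singleton families 20.2. By superfamily code, RLX had 8137 fragments (88.9%) and 93.3% of the counts, RLC had 520 fragments and 4.07%, and RLG had 501 fragments and 2.63%. The median fragment had 11 counts in RLC and 4 in both RLG and RLX. Of all fragments, 2863 (31.3%) lay on the chromosome of their source element, and these held 20.2% of the counts.

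The family with the most counts was RLX 102. Its 76 fragments from 3 source elements of 1061 to 1201 bases held 20.5% of all TRIM counts, and every one of them had a count. Summed over the family, the GUS RNAi libraries had 5815, 4396 and 4302 CPM and the SKI3 RNAi libraries 5017, 3047 and 4702 CPM. SKI3 RNAi replicate 2 was the lowest library and GUS RNAi replicate 1 the highest, and the groups overlapped. The log2 fold change, SKI3 RNAi over GUS RNAi, was -0.28 (SE 0.250, adjusted p 0.856, edgeR quasi-likelihood test over the whole table with Benjamini-Hochberg adjustment). Leaving out SKI3 RNAi replicate 2 gave -0.06, and leaving out GUS RNAi replicate 1 gave -0.13. The next families by counts were RLX 88 with 24 fragments and 7.40% of the counts, RLX 108 with 17 fragments and 6.55%, RLX 213 with 24 fragments of 1 source element of 887 bases, and RLX singleton 850 with 11 fragments of 1 element of 726 bases. RLX 88 had 1716, 1747 and 1181 CPM in GUS RNAi against 2005, 2138 and 1506 CPM in SKI3 RNAi, with a log2 fold change of 0.18 (SE 0.200, adjusted p 0.860), or 0.035 without GUS RNAi replicate 3. RLX 108 was the steadiest of them, at 1539, 1516 and 1518 CPM in GUS RNAi and 1574, 1281 and 1448 CPM in SKI3 RNAi. Across the 6 libraries its highest value was 1.23 times its lowest, compared with 1.91 times for RLX 102.

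The 5 families with the most fragments were other families than the 5 with the most counts. RLX 0 had the most fragments, 349 from 81 source elements, but 14.7 counts per fragment against 1070 in RLX 102. Its summed level was 294, 288 and 290 CPM in GUS RNAi and 267, 301 and 336 CPM in SKI3 RNAi, and 231 of its fragments had a count. RLX 9 (139 fragments) ranged from 143 to 238 CPM in GUS RNAi and from 154 to 334 CPM in SKI3 RNAi. RLX 2 (83 fragments) had 603 to 668 CPM in GUS RNAi and 502 to 729 CPM in SKI3 RNAi, and RLX 13 (81 fragments) had 166 to 184 and 166 to 206 CPM. The groups overlapped in all 4 of these families. They did not in RLC 1, a Copia-coded family of 96 fragments, which had 132, 132 and 117 CPM in GUS RNAi and 101, 98.5 and 101 CPM in SKI3 RNAi. Its log2 fold change was -0.44 (SE 0.162, p 0.0213, adjusted p 0.738 in edgeR's quasi-likelihood test). A single fragment, number 2573 of chromosome 8, made up -13.6 CPM of the family's difference of -27.0 CPM. The median log2 fold change of its 8 tested fragments was -0.21.

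**Figure D1:**
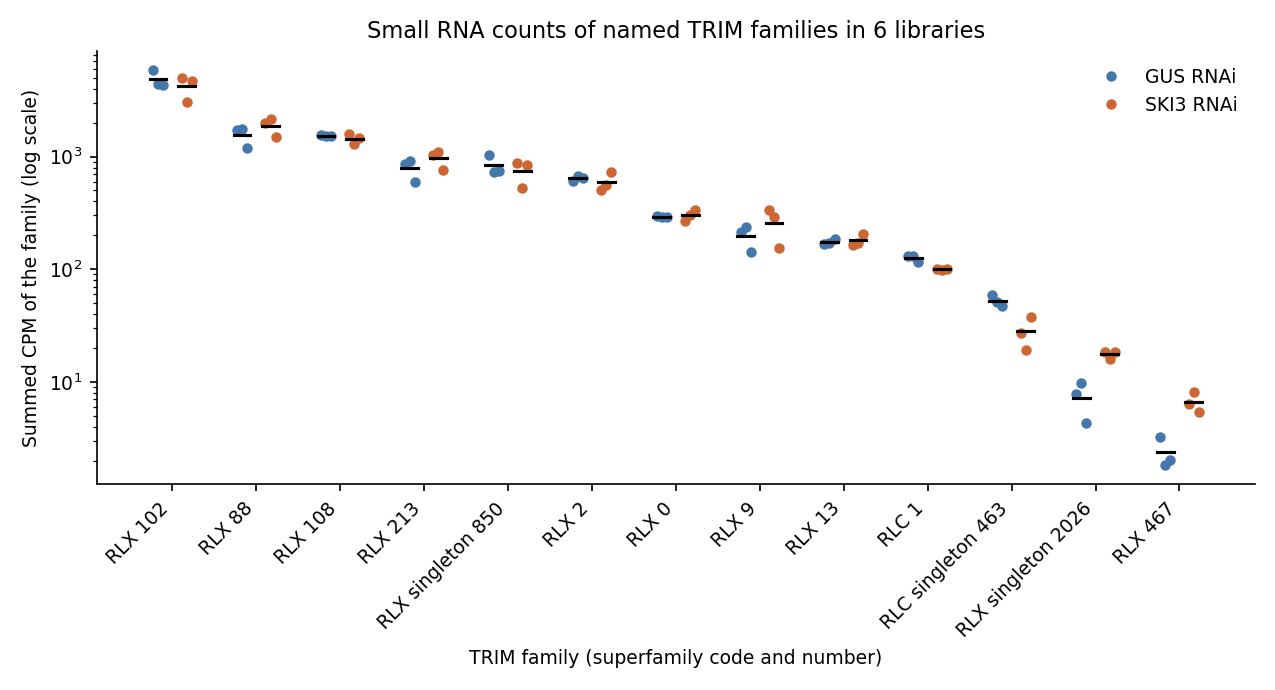
Summed CPM (log axis) of 13 TRIM families in the 3 GUS RNAi and the 3 SKI3 RNAi libraries; points are libraries and bars are group means. The groups overlap in the 9 most counted of these families and are apart in RLC 1, RLC singleton 463, RLX singleton 2026 and RLX 467, which have fewer counts. The counts of RLC 1 and RLC singleton 463 are in part alike, as described below, so these are not separate observations.

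Among the 12 most counted families, 10 fell into 2 sets by their pattern over libraries, a split made after the values were seen. In the set of RLX 102, singleton 850, 5, 182, 195 and 108, which held 35.6% of TRIM counts, the summed level was 9670, 7785 and 7668 CPM in GUS RNAi and 8632, 5674 and 8107 CPM in SKI3 RNAi. SKI3 RNAi replicate 2 was the lowest library. In the set of RLX 88, 213, 461 and 110, which held 15.0%, the levels were 3515, 3623 and 2434 CPM and 3961, 4336 and 2991 CPM, with GUS RNAi replicate 3 lowest and SKI3 RNAi replicate 2 highest. The groups overlapped in both sets. Families of a set often lay in the same stretches of neighbouring fragments, described below, and are not separate observations. All other families together had 10973, 11435 and 10243 CPM in GUS RNAi and 10908, 12824 and 11804 CPM in SKI3 RNAi.

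**Figure D2:**
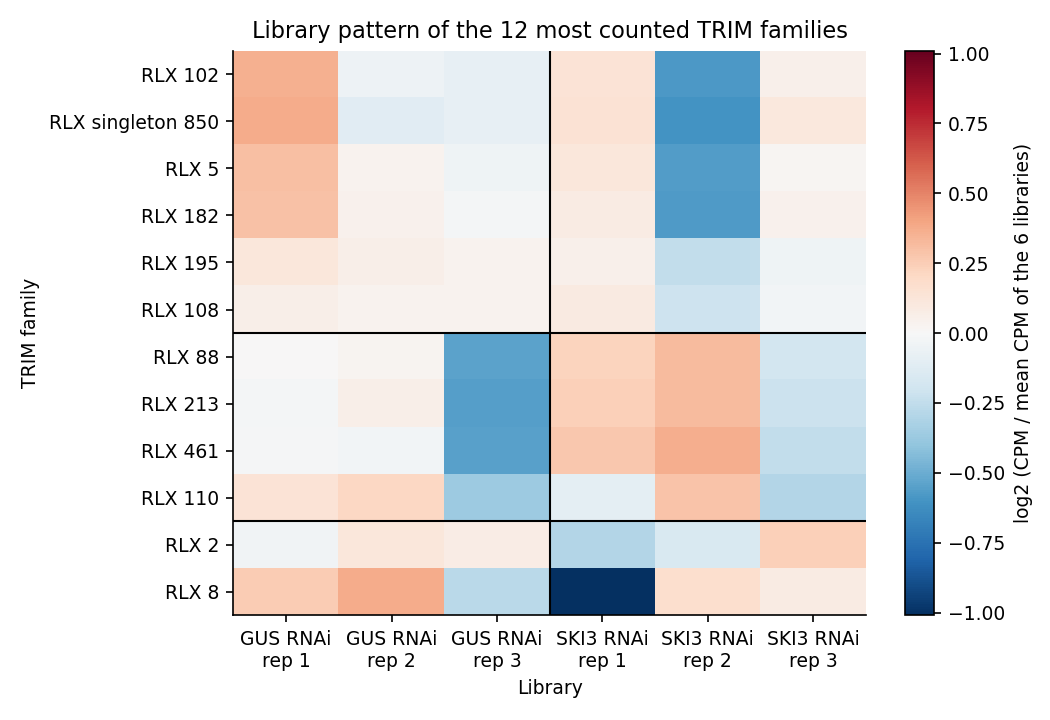
Level of each of the 12 most counted TRIM families in each library, as the log2 ratio of its CPM to its mean over the 6 libraries. The upper 6 families are lowest in SKI3 RNAi replicate 2, and the next 4 are lowest in GUS RNAi replicate 3. RLX 2 and RLX 8 are lowest in SKI3 RNAi replicate 1.

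The highly counted fragments stood close together in the running numbers of their chromosomes. The numbers follow position at least coarsely: in blocks of 2000 numbers, the most common source position rose in 101 of 104 steps over the 8 chromosomes. Runs were defined, after the values were seen, as at least 5 TRIM fragments with 100 or more counts and gaps of at most 25 numbers. There were 10 such runs, whose 299 fragments held 56.4% of all TRIM counts, out of 603 TRIM fragments with 100 or more counts. The one with the most counts lay on chromosome 4, from number 11193 to 11256. It contained 45 TRIM fragments, 33 of them of RLX 102, and held 76980 counts, which is 19.4% of the TRIM total. Its level was 5412, 4158 and 4199 CPM in GUS RNAi and 4686, 2992 and 4404 CPM in SKI3 RNAi, again lowest in SKI3 RNAi replicate 2. Not every feature within this run was highly counted. The 11 fragments of other LTR elements between its first and last number had a median of 14 counts and the 8 fragments of further elements a median of 12, while 6 repeat regions had a median of 2866 and the TRIM fragments a median of 1380.

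RLX 102 and RLX 88 recurred in other runs. Chromosome 6 had one from number 10572 to 10648 with 57 fragments and 8.13% of the counts, 9 of its fragments being of RLX 88. A second on that chromosome, from 13813 to 13826, had 13 fragments, 7 of them of RLX 102, and 4.91%. The unplaced contig 0c07, which carries the source element of the most counted RLX 102 fragments, had 34 fragments with 4.73% of the counts, 26 of them of RLX 102. Chromosome 8 (6.05%), chromosome 1 (4.68% in the larger of 2 runs) and chromosome 7 (4.35%) also had runs above 4%. The groups overlapped in each of the 10 runs. Families of the sets above often shared a run. The run on chromosome 4 held RLX 102, 108, 195, 5 and singleton 850. The run from number 10572 on chromosome 6 held RLX 88, 461 and 110, among others. The sets were not fully apart, since RLX 108 also lay with RLX 88, 213 and 110 in the run on chromosome 8. By chromosome, 24.5% of all TRIM counts lay on chromosome 4 and 18.9% on chromosome 6, compared with 5.85% to 10.4% on the other 6.

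**Figure D3:**
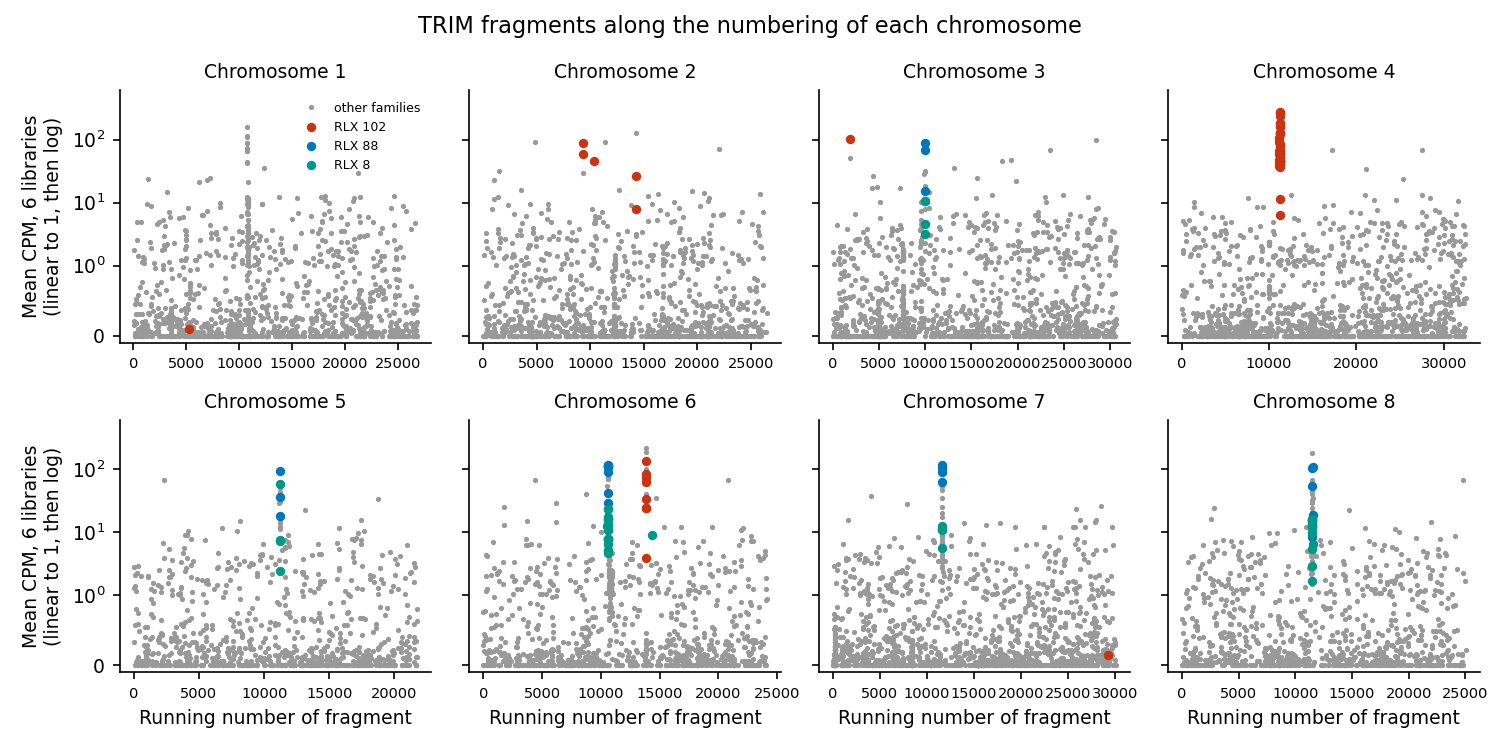
Mean CPM over the 6 libraries (linear to 1, then log) of each TRIM fragment against its running number, for chromosomes 1 to 8; RLX 102, RLX 88 and RLX 8 are coloured. Most fragments lie below 10 CPM along the whole numbering, and narrow columns of highly counted fragments stand out, with RLX 102 on chromosomes 4 and 6 and RLX 88 with RLX 8 on chromosomes 3, 5, 6, 7 and 8.

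The 10 fragments with the most counts had 2890 to 4967 counts each and held 9.39% of the TRIM total. Of these, 5 belonged to RLX 102, 7 lay on chromosome 4 and 2 were neighbours on chromosome 6, numbers 13818 (RLX 5) and 13819 (RLX 182). The first of them was RLX 102 fragment 11212 of chromosome 4, derived from element 44 (contig 0c07, 78683 to 79743, as given in the ID). It had 370, 253 and 262 CPM in GUS RNAi and 306, 186 and 278 CPM in SKI3 RNAi, from counts of 433 to 1471. In RLX 108, by contrast, fragment 11238 of chromosome 4 had 167, 208 and 213 CPM against 194, 187 and 176 CPM, and GUS RNAi replicate 1 was its lowest library. The groups overlapped in all 10, with log2 fold changes of -0.34 to -0.17 (SE 0.172 to 0.257, adjusted p 0.853 to 0.855 in edgeR).

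The filter on low counts kept 946 TRIM fragments (10.3%) for the test, and these held 82.9% of TRIM counts. No TRIM fragment passed an adjusted p of 0.05 in edgeR's quasi-likelihood test, where 0.0% of all 48283 tested features did, and none did in DESeq2. The smallest adjusted p of a TRIM fragment was 0.743. An unadjusted p under 0.05 was found for 58 TRIM fragments, or 6.13%, beside 6.58% of all tested features. DESeq2 gave 27 (background 2.38%), 1 of them higher (1.01%) and 26 lower (1.36%). Of the 58, 17 were higher in SKI3 RNAi (3.58% of all tested features were) and 41 were lower (2.99%). This split depended on the scaling. With total counts in place of TMM factors, which moved the median of all tested features from 0.02 to 0.12 on the log2 scale, 28 were higher (background 5.3%) and 18 lower (1.74%), 46 in all beside 7.04%. The median log2 fold change of the tested TRIM fragments was 0.01, beside 0.02 over all tested features. In TMM-scaled CPM the groups did not overlap in 91 TRIM fragments, or 9.62%, beside 13.0% of all tested features. Of these, 39 were higher in SKI3 RNAi (background 7.35%) and 52 lower (5.6%). With CPM by total counts, 50 were higher (10.5%) and 18 lower (3.6%).

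Summing fragments by family left 416 families to test, and no family passed an adjusted p of 0.05 in edgeR (0.0% of the 47753 features in that fit) or in DESeq2, the smallest adjusted p being 0.738. The unadjusted p was under 0.05 in 28 families, 6.73% beside 6.61% of all features, and DESeq2 gave 16, or 3.85% beside 2.41%. Of the 28, 20 were higher (background 3.61%) and 8 lower (3.0%), or 36 and 5 of 41 with total-count scaling. The 36 were 87.8% of those calls, beside 75.7% for all features called with that scaling (7.16% of those tested). The higher families with the smallest p had few counts. RLX singleton 2026, with 10 fragments of a 774-base element, had 7.80, 9.69 and 4.30 CPM in GUS RNAi and 18.6, 15.9 and 18.4 CPM in SKI3 RNAi. Its groups did not overlap, and its log2 fold change was 1.22 (SE 0.280, p 0.00128, adjusted p 0.738 in edgeR). RLX 467 had 7 fragments and 75 counts in all, at 3.27, 1.84 and 2.01 CPM against 6.31, 8.18 and 5.36 CPM, with a log2 fold change of 1.29 (SE 0.347). None of the fragments of these families had enough counts to be tested singly.

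**Figure D4:**
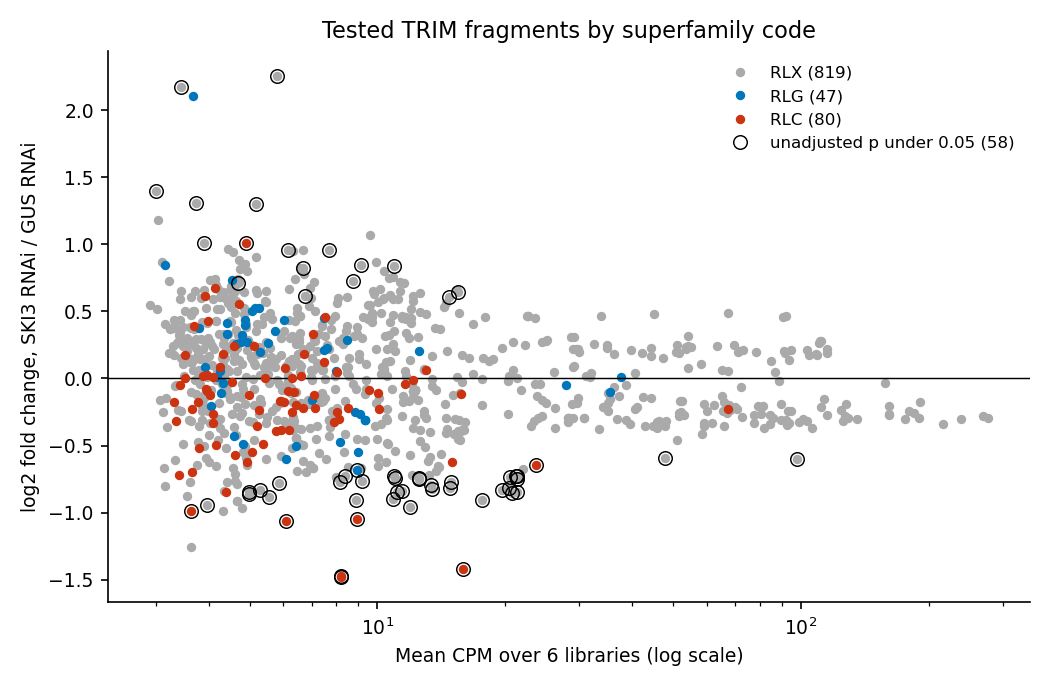
Log2 fold change, SKI3 RNAi over GUS RNAi, of the 946 tested TRIM fragments against their mean CPM (log axis), coloured by superfamily code; circles mark the 58 at an unadjusted p under 0.05. The 10 most counted fragments lie between -0.34 and -0.17, the 3 lowest points are RLC fragments, and no point passes an adjusted p of 0.05.

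The 3 lower fragments with the smallest p were Copia-coded and came from source elements of nearly the same length. RLC 1 fragment 2573 of chromosome 8, from element 1673 (chr4:37645832-37646371, 540 bases), had 30.4, 17.1 and 20.7 CPM in GUS RNAi and 10.9, 6.45 and 9.95 CPM in SKI3 RNAi. All SKI3 RNAi values lay below all GUS RNAi values. Its log2 fold change was -1.42 (SE 0.303, p 0.000756, adjusted p 0.743 in edgeR). RLC singleton 463 fragments 17015 of chromosome 5 and 5151 of chromosome 1, both from element 1007 (chr3:9804112-9804650, 539 bases), had log2 fold changes of -1.48 (SE 0.330) and -1.47 (SE 0.333). Fragment 17015 had 15.6, 9.69 and 10.3 CPM in GUS RNAi and 5.96, 3.01 and 4.59 CPM in SKI3 RNAi. The counts of these 2 fragments added together, 120, 43, 74, 32, 13 and 27 over the 6 libraries, came close to the 121, 37, 72, 31, 15 and 26 of the RLC 1 fragment. The 3 can therefore not be taken as separate observations. The third tested fragment of the family, number 25904 of chromosome 7, had counts of 114, 67 and 89 with GUS RNAi and of 45, 32 and 72 with SKI3 RNAi, with a log2 fold change of -0.65 (SE 0.281, p 0.0424). As a family, RLC singleton 463 had 58.9, 50.7 and 46.8 CPM against 27.0, 19.4 and 37.9 CPM, with no overlap (log2 fold change -0.97, SE 0.264, p 0.00388, adjusted p 0.738 in edgeR). Without the filter on low counts, which adds sparse features to the fit, the adjusted p of the 3 fragments fell to 0.000833, 0.00748 and 0.00845. That fit shrank the variance of each feature fully to the common trend (infinite prior degrees of freedom, 6.52 in the main fit). It also called RLX singleton 1327 fragment 17333 (adjusted p 1.59e-18), which had 193 of its 212 counts in GUS RNAi replicate 1. Its adjusted p therefore do not measure the spread of single features. Leaving out single libraries gave adjusted p of 0.0847 to 0.968 for fragment 2573, so no such fit called it.

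Over the RLC code as a whole, 80 fragments of 31 families were tested. At an unadjusted p under 0.05, 7 were lower (8.75%, beside 2.99% of all tested features) and 1 was higher. The 7 include RLC 1 fragment 2573 and RLC singleton 463 fragments 17015 and 5151, which are not separate observations. The 8.75% therefore counts alike fragments more than once. The median log2 fold change of the tested RLC fragments was -0.17, and 55 of 80 were below 0. The medians were 0.20 in the 47 RLG and 0.03 in the 819 RLX fragments. A median below 0 was not particular to RLC. It was -0.08 in the 2147 tested Copia LTR fragments and -0.05 in the 3968 tested Gypsy and other LTR fragments, beside 0.02 over all tested features. By source length, the 7 lower RLC fragments came from elements of 416 to 540 bases, 3 of them from element 1007, and the median log2 fold change was -0.39 in the 19 fragments of elements under 500 bases, -0.20 in the 35 of 500 to under 1000 bases and -0.04 in the 26 of longer ones. Few families made up the shortest class, with 10 of its 19 fragments from RLC singleton 513 and 5 from RLC 45, and differences between the classes were not tested. The summed RLC level was 959, 1003 and 918 CPM in GUS RNAi and 966, 763 and 919 CPM in SKI3 RNAi. It overlapped between groups by total counts and did not overlap with TMM scaling. SKI3 RNAi replicate 2 was the lowest library, and without it the RLC median lay 0.035 below that of all features, compared with 0.19 below it with all libraries. The RLG sum was 549, 601 and 556 CPM against 667, 648 and 610 CPM, apart by total counts and overlapping with TMM scaling.

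The 3 higher fragments with the smallest p were of RLX families. RLX singleton 675 fragment 17754 of chromosome 1, from element 375 (chr1:37747006-37748896, 1891 bases), had GUS RNAi counts of 17, 4 and 7 and SKI3 RNAi counts of 19, 20 and 20. That corresponds to 4.28, 1.84 and 2.01 CPM against 6.66, 8.61 and 7.66 CPM, with no overlap (log2 fold change 1.30, SE 0.365, p 0.00474, adjusted p 0.743 in edgeR). RLX singleton 1243 fragment 3824 of chromosome 4, from element 1454 (chr4:8002685-8003724), had 6, 3 and 6 counts against 15, 10 and 10, a log2 fold change of 1.40 (SE 0.396). RLX 537 fragment 3901 of chromosome 5, from element 1676 (chr4:37808550-37809323), had 6.79, 6.46 and 5.45 CPM against 10.9, 15.5 and 9.95 CPM, a log2 fold change of 0.84 (SE 0.257). The groups did not overlap in any of the 3, and their counts were low.

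The 41 lower fragments came from 20 families and 23 source elements, the 17 higher ones from 16 families. The lower ones were not evenly spread. On chromosome 6, 19 of 144 tested fragments were lower (13.2%) and 0 higher. All 19 lay between numbers 10609 and 10641, within the run that starts at number 10572. Most of the 9 lower fragments of chromosome 7 lay between numbers 11623 and 11633, also within a run. Both stretches held lower fragments of further families beside RLX 8 or RLX 110. Neighbouring fragments of a stretch cannot be taken as separate observations. The families RLX 8 and RLX 110 accounted for 18 of the 41. RLX 8, whose 53 fragments lie on chromosomes 3, 5, 6, 7 and 8, contributed 10 of its 49 tested fragments, 5 on chromosome 6 and 5 on chromosome 7. RLX 110 contributed 8 of its 16 tested fragments, all on chromosome 6. The share of all tested features called lower was 2.99%. In all 18, and in 28 of the 41, SKI3 RNAi replicate 1 was the lowest library. Summed over its 10 fragments, RLX 8 had 136, 151 and 97.8 CPM in GUS RNAi and 43.5, 106 and 82.7 CPM in SKI3 RNAi, which overlapped by total counts and not with TMM scaling. The 8 fragments of RLX 110 summed to 191, 204 and 137 CPM in GUS RNAi and 67.3, 161 and 102 CPM in SKI3 RNAi. Without SKI3 RNAi replicate 1, 1 fragment of RLX 8 and 1 of RLX 110 were lower at an unadjusted p under 0.05. The median log2 fold change of the tested fragments then went from -0.39 to -0.04 in RLX 8 and from -0.70 to -0.41 in RLX 110. Without GUS RNAi replicate 1, the numbers were 3 and 1, while the medians were -0.35 and -0.62. Summed over all fragments, RLX 8 had 716, 777 and 497 CPM in GUS RNAi and 298, 675 and 635 CPM in SKI3 RNAi. RLX 110 had 597, 626 and 421 CPM against 506, 662 and 442 CPM. Both families overlapped between groups.

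In a few other fragments, single libraries also stood apart from the others of their group. The count ratio 2:1:2:4:0:0 over the 6 libraries, within a tolerance of 0.03 of the fragment's total per library, was found in 2 of the 602 tested TRIM fragments with 100 or more counts. The larger was RLC singleton 498 fragment 9901 of chromosome 5, from element 2684 (chr7:9518622-9519612, 991 bases), with GUS RNAi counts of 26, 13 and 27 and SKI3 RNAi counts of 52, 0 and 0. Its log2 fold change was -0.20 (SE 0.957, adjusted p 0.977 in edgeR). It became -7.36 (adjusted p 0.00307) without SKI3 RNAi replicate 1, a fitted value against libraries at 0, and 0.35 and 0.34 without replicates 2 and 3. That fit without SKI3 RNAi replicate 1 called 4 of 982 TRIM fragments, beside 492 of all 50549 features. They were 3 of RLC singleton 498 and 1 of RLC singleton 497, the last with 44, 21 and 39 counts against 66, 5 and 9. In a second pattern, GUS RNAi replicate 3 stood apart within its group. RLX singleton 573 fragment 11572 of chromosome 3 had GUS RNAi counts of 1, 0 and 17 and SKI3 RNAi counts of 20, 35 and 20. Its log2 fold change of 2.26 (SE 0.756, p 0.0130, adjusted p 0.743 in edgeR) was the largest of the 17 higher fragments. RLX 0 fragment 22108 of the same chromosome had 0, 0 and 11 against 11, 22 and 11 (2.17, SE 0.851, p 0.0276 in edgeR). The RLX singleton 1327 fragment 17333 of chromosome 4 had 193 of its 212 counts in GUS RNAi replicate 1. These fragments were named after their values were seen.

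Source elements were 365 to 1981 bases long, with a median of 907, and none reached 2000 bases. Fragments of elements of at least 1000 bases numbered 5067 and held 67.8% of the TRIM counts, those of 500 to under 1000 bases numbered 3569 and held 28.8%, and the 522 of shorter elements held 3.46%. This came to 53.0, 31.9 and 26.3 counts per fragment. RLX 102 alone set much of the difference, since without it the longest class had 37.5 counts per fragment. The median fragment had 4 counts in both longer classes and 5 in the shortest, and 76.6%, 77.1% and 78.7% of fragments had a count. Over the 9158 fragments, Spearman's rho between source length and counts was -0.03, and over the 1892 source elements it was 0.26 between length and number of fragments and 0.14 between length and counts. Points in all 3 share libraries and families, so these are descriptions. By quartile of length, the second quartile (above 721 and up to 1062 bases), which contains the 1061-base element of RLX 102, held 39.9% of the counts and the longest quartile 25.3%.

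The summed levels of the length classes did not separate the groups. Elements of at least 1000 bases supplied 68.4%, 67.9% and 68.1% of the TRIM counts in the GUS RNAi libraries and 68.0%, 67.2% and 66.6% in the SKI3 RNAi libraries, and the ranges overlapped by a narrow margin. Their summed level was 15297 CPM ± 1349 (SD, n = 3) in GUS RNAi and 15528 CPM ± 388 (SD, n = 3) in SKI3 RNAi. Elements of 500 to under 1000 bases had 6390 CPM ± 574 and 6735 CPM ± 21.6, and shorter ones 761 CPM ± 19.7 and 815 CPM ± 105 (SD, n = 3 each). At an unadjusted p under 0.05, 10 fragments were higher and 25 lower in the longest class (5.97% of those tested), 7 and 12 in the middle class (6.11%), and 0 and 4 in the shortest (8.16%), beside 6.58% of all tested features. In the longest quartile, 4 were higher and 20 lower of 259 tested. The lower share there was 7.72%, compared with 2.30% to 5.0% in the other quartiles and 2.99% of all tested features. The 20 include the 8 neighbouring RLX 110 fragments on chromosome 6, of a 1971-base element. The shortest source element with a tested fragment was element 857 of RLX 10 (chr2:40071881-40072278, 398 bases), whose fragment 18821 on chromosome 8 had 12.1, 6.0 and 9.47 CPM in GUS RNAi and 12.6, 6.88 and 21.4 CPM in SKI3 RNAi (log2 fold change 0.45, SE 0.413). The longest was element 2774 of RLX 197 (chr7:18544893-18546873, 1981 bases), with 2 tested fragments in the chromosome 6 run. Its fragment 10636 had 12.6, 16.1 and 11.5 CPM against 5.61, 12.9 and 7.27 CPM, with a log2 fold change of -0.74 (SE 0.301, p 0.0326, adjusted p 0.743 in edgeR). Its fragment 10648 had 12.1, 12.9 and 8.61 CPM against 4.21, 12.5 and 12.6 CPM, a log2 fold change of -0.29 (SE 0.372).

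**Figure D5:**
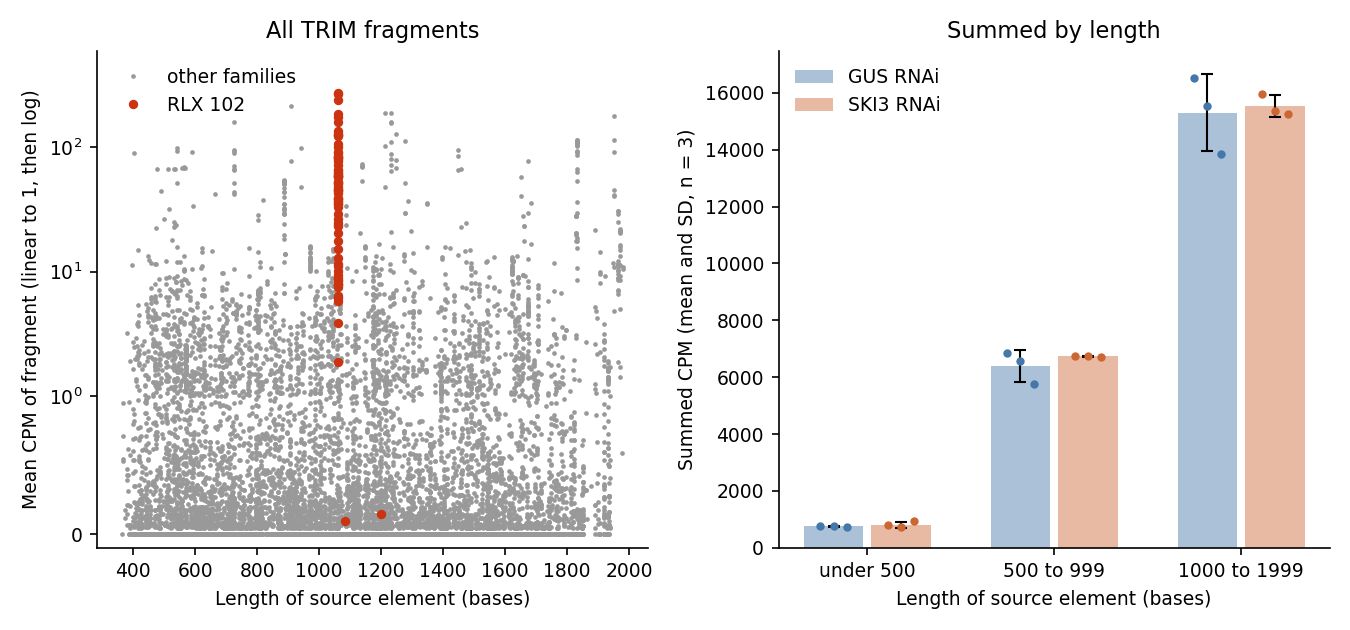
Left, mean CPM (linear to 1, then log) of each of the 9158 TRIM fragments against the length of its source element in bases, with RLX 102 in red; right, summed CPM by length class in each library, with group mean (bar) and SD (n = 3). RLX 102 forms a column at 1061 bases, and the groups overlap in each length class.

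Compared with other LTR retrotransposons in the same libraries, TRIM counts were more concentrated. The most counted 1% of TRIM fragments held 34.9% to 44.9% of the TRIM counts of a library. The same share was 18.2% to 23.3% in the 19597 Copia fragments and 22.9% to 30.9% in the 45975 Gypsy and other LTR fragments, each chosen on the counts of these libraries. TRIM was higher in 6 of 6 libraries in both comparisons, by 20.3 ± 2.56 and 13.7 ± 2.45 percentage points (mean and SD, n = 6; exact two-sided sign-flip permutation test, p 0.03125, the smallest possible, adjusted p 0.0469 over 6 tests). Mean CPM per fragment was 2.22 to 2.64 in TRIM, 1.36 to 1.53 in Copia and 1.29 to 1.41 in the others, a difference of 1.02 ± 0.117 and 1.15 ± 0.140 CPM with the same exact permutation p and adjusted p (n = 6). Fragment lengths are not in the IDs, so this is not a comparison per base. The share of fragments with a count, 46.0% to 55.0% in TRIM, differed by -0.09 ± 1.16 percentage points from Copia and -0.15 ± 0.918 from the others (mean and SD, n = 6; exact permutation p 0.906 and 0.719, adjusted p 0.906 and 0.863). All 6 libraries went into these comparisons whatever their group. The same fragments were counted in every library, so these p measure agreement between libraries and not a difference between element classes in general. The run of 45 TRIM fragments on chromosome 4 alone held 19.4% of all TRIM counts, and the 299 fragments of the 10 runs held 56.4%. The higher mean CPM in TRIM therefore does not describe a typical TRIM fragment. Means without the runs were not compared.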

How the data were processed

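The deposited tables hold counts of reads per annotated feature in 6 libraries, as whole numbers that the authors had not normalized. Per the submitters' processing notes, cutadapt 2.10, Bowtie 1.3.1 and DESeq2 1.34.0 were used, in steps not given in the sources used here. Per the labels' protocols, Trizol RNA was ligated to adaptors on both ends, reverse transcribed and amplified by PCR, with no mention of molecular identifiers, so floors cover counting error only. The IDs name the MtrunA17 genome without its release, and no sequence was used. A header line left inside 1 table was dropped, and 0 value columns were unmapped. Groups came from the library titles.

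CPM is the count scaled to a table total of 1000000. The whole table was fitted with edgeR 4.0.16 (R 4.3.3): TMM factors, filterByExpr (minimum count 10), quasi-likelihood test with group as the only term, Benjamini-Hochberg adjustment over all tested features, threshold 0.05. Families were fitted likewise after summing their fragments. The standard error is the log2 fold change divided by the root of F. The fit was also run on simulated independent features with large changes. Fragments here can share reads, so that run does not measure how well the fit is calibrated on them. DESeq2 1.42.0, other scalings, no filter, a replicate block and left-out libraries were alternatives.

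Named were the 10 most counted fragments, the 3 higher and 3 lower with the smallest p, the 5 families with most counts and with most fragments, the 2 higher and 2 lower families with the smallest p, fragments of the shortest and longest source elements, and the ratio fragments; others were named after their values were seen. Members, lists and rules were chosen with earlier results of these data known.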

Additional observations from a re-analysis of the deposited data

How the results depend on the processing

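Without a filter on low counts, 11 of 7043 TRIM fragments (6 higher, 5 lower) passed an adjusted p of 0.05, beside 346 of 317228 features. Summed by family, 14 of 1266 families passed it, beside 357 of 311451 features. An unadjusted p under 0.05 was found for 340 fragments (4.83%, beside 4.64%) and 132 families (10.4%, beside 4.67%). The fragment fit without a filter shrank the variance of each feature fully to the common trend. DESeq2's Wald test gave 27 at the unadjusted level. Leaving out 1 library at a time gave 0 to 4 fragments and 0 to 2 families past the adjusted threshold. These calls came without SKI3 RNAi replicate 1. At the unadjusted level there were 41 to 117 fragments, 88 without SKI3 RNAi replicate 2 and 117 without replicate 3. The share of tested TRIM fragments exceeded that of all features without SKI3 RNAi replicates 2 (8.53% beside 4.99%) and 3 (10.996% beside 8.94%). It also did so without GUS RNAi replicate 3 (7.28% beside 4.84%). The TRIM share was below that of all features without SKI3 RNAi replicate 1 (4.58% beside 7.22%). It was also lower without GUS RNAi replicates 1 (4.03% beside 5.30%) and 2 (4.64% beside 5.11%). The median log2 fold change was 0.10 with total-count scaling, 0.083 without the filter and -0.03 to 0.05 with 1 library left out. The share difference was -0.079 percentage points on totals without the 10 most counted features, -0.042 to 0.149 with 1 library left out, and 0.121 without RLX 102, a setting added after seeing the data. The longest quartile of source elements held 25.5% of TRIM counts as a mean over libraries, and the share from elements of 1000 bases or more was 67.6% to 67.9% with 1 library left out. Same-numbered libraries of the 2 groups deviated together with correlations of 0.071, 0.190 and 0.251, and each library correlated best with its own number, a hint from the data and not the design; the numbers were not taken as pairs. With the replicate number as a block, 83 fragments (8.77%, beside 7.98% of all features) had an unadjusted p under 0.05 and 0 passed the adjusted threshold. Among the named fragments and families, log2 fold changes took the opposite sign in 5, with 1 library left out or with total counts. They ranged from -7.36 to 0.35 for RLC singleton 498 fragment 9901 (0.35 and 0.34 without SKI3 RNAi replicates 2 and 3), from -0.095 to 0.77 for RLX 10 fragment 18821 (-0.095 without SKI3 RNAi replicate 3), from -0.61 to 0.082 for RLX 197 fragment 10648 (0.082 without SKI3 RNAi replicate 1), from -0.20 to 0.038 for RLX 0 (0.038 without SKI3 RNAi replicate 1, and 0.051 with total counts), and from -0.20 to 0.036 for RLX 13 (0.036, 0.033 and 0.030 without GUS RNAi replicate 3 and SKI3 RNAi replicates 1 and 2, and 0.063 with total counts). The cause was not tested. Low counts limit most members, since the median TRIM fragment had 4 counts in all.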
